A study of Mus musculus with 10 samples.

Results

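The genes described here are 36 genes of amino acid supply and charging: plasma membrane amino acid transporters, the transcription factor ATF4 with stress response genes, enzymes of asparagine, serine and one-carbon synthesis, cytosolic tRNA synthetases, and subunits and targets of the mTORC1 kinase complex. They were chosen by function and by name, and all 36 were found among the 55809 gene rows of the count tables. They were measured by bulk RNA-seq in 10 libraries of Treg cells, the Foxp3-expressing CD4 T cells that restrain immune responses, from spleen and lymph nodes. All mice carried the Foxp3-AID allele, which fuses an auxin-inducible degron to the protein and also drives a ZsGreen reporter and Cre recombinase. In the 4 R26-WT libraries the ROSA26 locus was unmodified. In the 6 R26-TIR1(F74G) libraries it carried, behind a stop cassette that the Foxp3-driven Cre removes, the mutated plant ubiquitin ligase subunit TIR1(F74G) and an mCherry reporter under the CAG promoter, which is active in most cells. Every mouse was given 5-ph-IAA, the auxin analog that lets TIR1(F74G) mark the fusion protein for degradation, over 14 days, so the groups differed in the presence of TIR1 and not in the drug or the Foxp3 allele. The study used newborn and adult mice and the labels give no age for these libraries, the processing path in the file headers names male mice, and the general sort in the study's methods, not stated for these libraries, used mCherry only where TIR1 was present, so gate and genotype cannot be told apart. The labels do not say more about the origin of each library than a number in its name, and p-values measure the spread between these libraries.

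Amino acids enter lymphocytes through dedicated carriers, are joined to their tRNAs by synthetases, and are sensed by the kinase GCN2, which detects uncharged tRNA, and by mTORC1, which is active when amino acids are plentiful. GCN2 phosphorylates eIF2alpha, which favours translation of ATF4, and ATF4 then raises transcription of transporters, of the serine and asparagine pathways and of most cytosolic synthetases. T cells raise this set strongly when they are activated and begin to divide, and mTORC1 activity also increases ATF4 output, so the genes are a usual transcript readout of growth state in Treg cells.

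The binding site that ATF4 shares with C/EBP proteins has the core TGATGNAA, and it was looked for on both strands of RefSeq promoter windows, which run from 250 bases before to 50 after each annotated start. A window was found for 28 of the 36 genes, and 9 of the 28 (32.1%) held the core, against 4.51% of 27025 genes with a window. Genes of the set were chosen as linked to ATF4 or mTORC1, so a share above that of all genes cannot be told apart from this choice. The core was found in 5 of 8 synthetases, 2 of 5 stress response genes, 1 of 5 transporters, 1 of 7 synthesis genes and 0 of 3 mTORC1 genes. Of the pathway genes outside the set, it was found in 7 of 21 other ATF4 targets and eIF2alpha genes (33.3%), 2 of 19 other transporters, 1 of 33 other mTORC1 genes, 0 of 8 other cytosolic synthetases and AIMP proteins, 0 of 14 mitochondrial synthetases and 0 of 12 other one-carbon genes. With the 250 bases before the start alone it was found in 6 of 28 genes (21.4%), against 3.91% of all genes. Sites of 8 genes are shown so that each core can be read with the bases around it, and the likeness of the cores is set by the search. Each line gives the gene strand of the mouse genome build GRCm39 with the core in capitals, which reads as its reverse complement where the core lies on the other strand.
Asns: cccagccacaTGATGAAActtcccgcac (chr6:7693215-7693242, minus strand)
Trib3: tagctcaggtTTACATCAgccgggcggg (chr2:152185949-152185976, minus strand)
Chac1: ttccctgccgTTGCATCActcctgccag (chr2:119181520-119181547, plus strand)
Slc7a11: cTGATGCAAacctggagaatTTGCATCAt (chr3:50398101-50398129, minus strand)
Gars: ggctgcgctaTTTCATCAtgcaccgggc (chr6:55014946-55014973, plus strand)
Iars: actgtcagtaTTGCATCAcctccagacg (chr13:49835603-49835630, plus strand)
Tars: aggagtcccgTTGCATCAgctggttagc (chr15:11399742-11399769, minus strand)
Yars: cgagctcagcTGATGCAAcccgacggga (chr4:129083689-129083716, plus strand)
Slc7a11 held the core in both orientations within one short stretch. A match is a description of the letters and not of binding. The 7 tested genes with a core had a median log2 difference of 0.02 between groups and the 19 without one a median of 0.06, and no gene of either kind passed the test described next.

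None of the genes passed the threshold for a difference between the groups after 14 days. Counts were compared by DESeq2 (log2 fold change of R26-TIR1(F74G) over R26-WT, two-sided Wald test, Benjamini-Hochberg adjusted p under 0.05 over the 16363 genes whose mean count reached 10). Of the 34 genes that could be tested, 0 were called higher, where 1.40% of all genes tested were, and 0 were called lower, where 0.336% were, so that 0 of 34 stood beside 1.74% in either direction. The edgeR quasi-likelihood test, which called 0.373% of all genes, and limma voom with quality weights, which called 0.489%, also called 0 of the 34. At an unadjusted p under 0.05, DESeq2 gave 2 of the 34 (5.88%), against 6.86% of all genes, edgeR gave 2, against 6.21%, and voom gave 3, against 8.37%. In 28 of the 34 the DESeq2 adjusted p was 0.99996. These are bulk samples, in which fewer cells of one kind and less RNA per cell cannot be told apart.

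For 24 of the 34 genes the difference was smaller than its standard error, and for 2, Shmt1 and Psat1, it was larger than 2 standard errors. Log2 fold changes ranged from -0.19 for Slc3a2 to 0.37 for Shmt1, with standard errors between 0.07 and 0.49. The median was 0.07, beside 0.0006 over all genes tested, and the median absolute value was 0.12 over the 34 and 0.12 over all genes. At a mean normalized count of at least 500 the median absolute value was 0.11 for 31 of the 34 and 0.089 for 8638 genes. Of the 34 values, 27 lay above 0 and 7 below, beside 50.1% above 0 over all genes. Of the 27, Gars fell below 0 with TMM or upper-quartile scaling and Psph with upper-quartile scaling. Without R26-WT replicate 3, 21 values lay above 0 and 13 below, with a median of 0.03, and without R26-TIR1(F74G) replicate 7 there were 22 and 12, with a median of 0.04. The numbers were 23 and 11 without R26-WT replicate 4, and the median was 0.12 without R26-WT replicate 2. With a trend on gene length removed from each library 21 lay above 0 and 13 below, and with a surrogate variable 22 and 12. For 22 of the 34 genes the whole 95% interval lay within a log2 difference of 0.5 either way, a 1.41-fold change, and for the other 12 the data allowed a larger one.

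**Figure D1:**
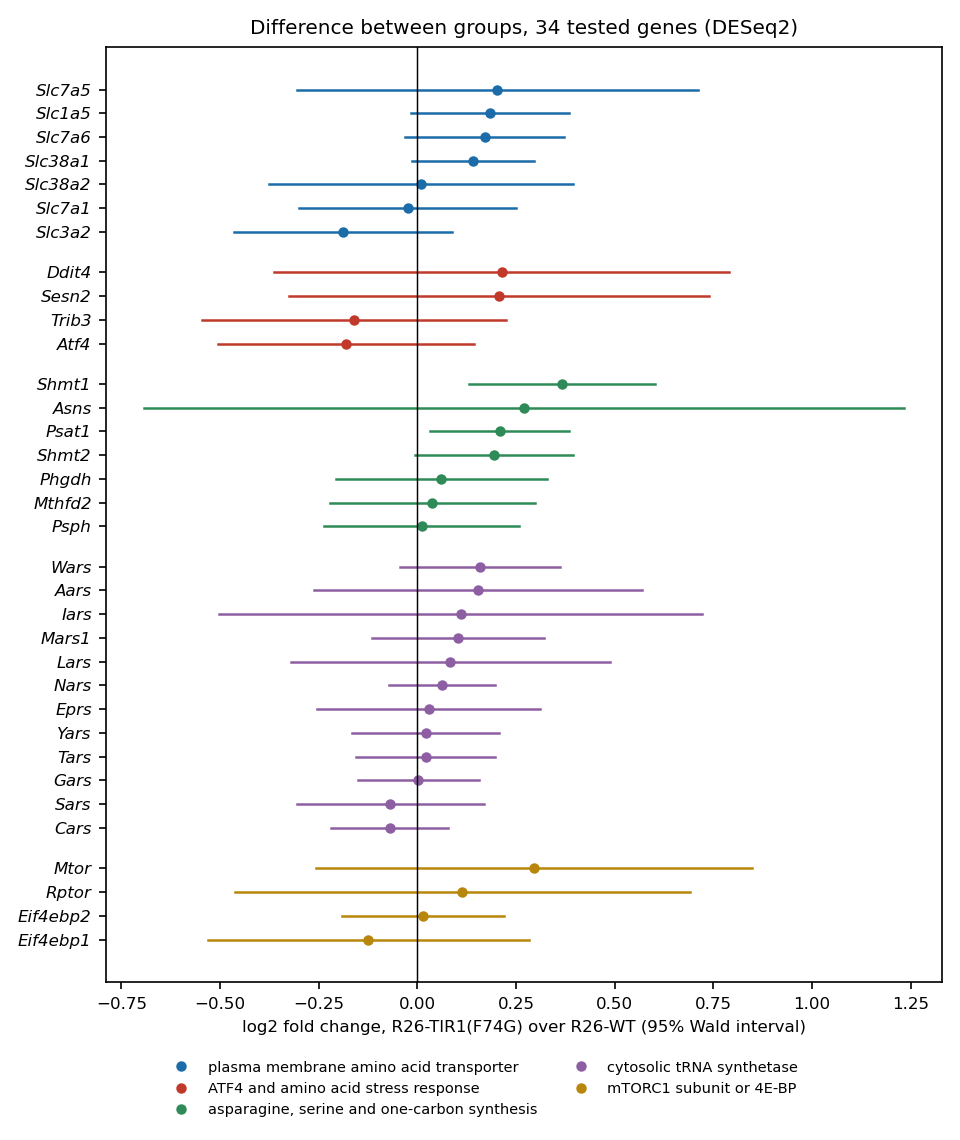
Log2 fold change of R26-TIR1(F74G) over R26-WT (x axis) for the 34 tested genes (y axis), coloured by role, with DESeq2 95% Wald intervals as bars. Only the intervals of Shmt1 (0.13 to 0.60) and Psat1 (0.03 to 0.38) do not cross 0, neither passed the adjusted threshold, and the interval of Asns is the widest.

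Normalized counts below are read-pair counts divided by the DESeq2 size factor of the library, and levels are compared between genes only after division by the summed exon length in kb. This length takes in all annotated exons of a gene. Which of them were used in these cells was not measured, so the order per kb depends on the annotation. Per kb, the glutamine and neutral amino acid carrier Slc1a5 was the most abundant of the set, with 4899 ± 437 normalized read pairs per kb in the 4 R26-WT libraries (mean ± SD) and 5567 ± 427 in the 6 R26-TIR1(F74G) libraries, above 97.5% of all tested genes. The stress response gene Ddit4 came next with a mean over all libraries of 3428, then Atf4 with 2487 and Slc3a2 with 2408. Slc1a5 stood above Ddit4 in 9 of 10 libraries, whereas Atf4 stood above Slc3a2 in 6 of 10, so the order of the latter pair was not separated. The synthetases Nars, Sars, Gars and Wars followed at 2105, 2061, 2018 and 1988 per kb, a group whose neighbours exchanged places between libraries. At the low end of the tested genes were Mtor with 104.5, Rptor with 92.5 and Asns with 12.2 per kb, and only the step from Rptor to Asns held in all 10 libraries.

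**Figure D2:**
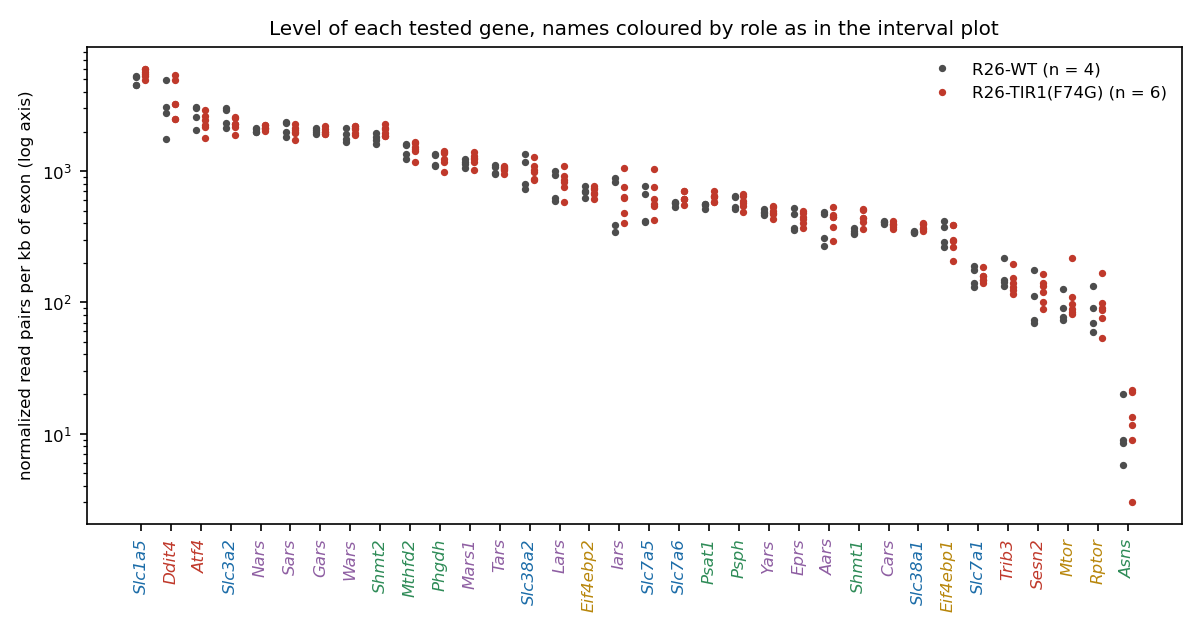
Normalized read pairs per kb of exon (log axis) for each tested gene, ordered by the mean over 10 libraries, with 1 point per library and R26-WT (n = 4) left of R26-TIR1(F74G) (n = 6). The levels span from 5299 for Slc1a5 to 12.2 for Asns, while the points of the groups lie over each other for nearly every gene.

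Of the 8 plasma membrane transporters, 7 could be tested, 5 with values above 0 and 2 below, and their median log2 fold change was 0.14 (0.02 without R26-TIR1(F74G) replicate 7, 0.05 with a surrogate variable). Slc1a5 (chr7:16515265-16532199) had normalized counts of 21902, 22128, 18737 and 19000 in the R26-WT libraries, and of 20582 at the lowest, 23260 at the median and 25131 at the highest in R26-TIR1(F74G). All 6 R26-TIR1(F74G) libraries exceeded the R26-WT median and 4 exceeded its maximum, so the groups overlapped. This gave a log2 fold change of 0.18 ± 0.10 (SE), with a DESeq2 adjusted p of 0.862.

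Slc7a5 and Slc3a2 encode the light and heavy chain of the leucine carrier LAT1-CD98, in which the light chain transports and the heavy chain brings it to the membrane. Slc7a5 (chr8:122607889-122634433) had 2488, 2859, 1515 and 1555 normalized counts in R26-WT replicates 1 to 4, and in R26-TIR1(F74G) 1580, 2167 and 3820 as lowest, median and highest, the last in replicate 7. Slc3a2 (chr19:8684246-8700733) had 8144, 7563, 10297 and 10662 in R26-WT and 6610, 8043 and 9043 as lowest, median and highest in R26-TIR1(F74G), the lowest again in replicate 7. The chains of the carrier thus moved in opposite directions between libraries of one group, with R26-WT replicates 3 and 4 low in the light chain and high in the heavy chain. Log2 fold changes were 0.20 ± 0.26 (SE) for Slc7a5 and -0.19 ± 0.14 for Slc3a2, both with a DESeq2 adjusted p of 0.99996. The value of Slc7a5 was 0.02 without R26-TIR1(F74G) replicate 7 and 0.39 without R26-WT replicate 2, and that of Slc3a2 was -0.11 when R26-WT replicate 4 was left out.

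A ratio of both chains within a library does not depend on scaling between libraries. Per kb, Slc7a5 stood to Slc3a2 at 0.291, 0.36, 0.14 and 0.139 in R26-WT and between 0.166 and 0.55 in R26-TIR1(F74G), with means of 0.232 ± 0.111 (SD, n = 4) and 0.297 ± 0.135 (SD, n = 6) respectively. The heavy chain exceeded the light chain in all 10 libraries, and the ranges of the groups overlapped over most of their extent. Part of the Slc3a2 sequence is shared with the antisense-oriented host gene Snhg1 in a newer annotation, and without strand information such reads cannot be assigned with certainty.

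The alanine, serine and glutamine carriers Slc38a1 and Slc38a2 gave log2 fold changes of 0.14 ± 0.08 (SE) and 0.01 ± 0.20. Slc38a1 was the steadier of the pair, with 5781 to 6032 normalized counts in R26-WT and 5977 to 6925 in R26-TIR1(F74G), of which 5 of 6 libraries exceeded the R26-WT maximum. Its DESeq2 adjusted p was 0.893. Slc38a2 varied 1.85-fold within R26-WT alone. Slc7a6, which exchanges neutral and cationic amino acids, had a log2 fold change of 0.17 ± 0.10 with 5 of 6 R26-TIR1(F74G) libraries above the R26-WT maximum and a DESeq2 adjusted p of 0.960. The cationic carrier Slc7a1 had -0.02 ± 0.14. Slc7a11, the cystine and glutamate exchanger, held 0 to 2 raw counts per library and 9 in all 10 together, and was not tested.

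Of the ATF4 and stress response genes, 4 of 5 could be tested and their median log2 fold change was 0.02, with 2 above and 2 below 0. This median changed sign when single libraries were left out, from -0.09 (R26-TIR1(F74G) replicate 6) and -0.05 (R26-WT replicate 3) to 0.17 (R26-WT replicate 2). Atf4 (chr15:80139385-80141742) had 6063, 4884, 7092 and 7206 normalized counts in R26-WT and 4178, 5530 and 6830 as lowest, median and highest in R26-TIR1(F74G). The groups overlapped, with 1 R26-TIR1(F74G) library, replicate 7, below the R26-WT minimum, and the difference was -0.18 ± 0.17 on the log2 scale (SE, DESeq2 adjusted p 0.99996), or -0.11 and -0.29 when R26-WT replicate 4 or 2 was left out. ATF4 is controlled mainly through translation, which these counts do not measure.

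Ddit4, which encodes the mTORC1 inhibitor REDD1 (chr10:59785491-59787656), varied widely. It had 4826, 8714, 3057 and 5366 normalized counts in R26-WT, a 2.85-fold range, and 4339, 5682 and 9410 as lowest, median and highest in R26-TIR1(F74G). High and low libraries occurred in both groups, and the log2 fold change was 0.21 ± 0.29 (SE), or 0.02 and 0.53 without R26-WT replicate 3 or 2, respectively. Sesn2, a leucine-sensing inhibitor of mTORC1 signalling, gave 0.21 ± 0.27, or 0.05 and 0.56 without R26-WT replicate 4 or 2. Trib3, a pseudokinase that limits ATF4 activity, gave -0.16 ± 0.20. Chac1, a glutathione-degrading enzyme induced by ATF4, held a raw count of 0 in every library but R26-TIR1(F74G) replicate 9, which held 5. A count of 0 allows up to 3 read pairs, which is 0.0547 to 0.124 CPM (read pairs scaled to library size) in these libraries and covers counting error only.

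The 7 genes of asparagine, serine and one-carbon synthesis all had positive log2 fold changes, with a median of 0.19. This median was 0.07 without R26-WT replicate 2 or R26-TIR1(F74G) replicate 9, 0.11 without R26-TIR1(F74G) replicate 8 and 0.04 with voom. TMM or upper-quartile scaling did not move it below 0, while Psph changed sign with upper-quartile scaling. Psph also fell below 0 with voom (-0.029), with the length trend removed (-0.026) and without some single libraries (-0.043 without R26-WT replicate 1). Mthfd2 did so without R26-WT replicate 2 (-0.027). Shmt1 and Psat1, singled out here after their values were seen, were the genes with an unadjusted DESeq2 p under 0.05.

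Shmt1 encodes the cytosolic serine hydroxymethyltransferase, which moves a one-carbon unit from serine to folate (chr11:60678930-60702544). It had 1300, 1434, 1283 and 1344 normalized counts in R26-WT and 1413, 1706 and 1992 as lowest, median and highest in R26-TIR1(F74G). Of the 6 R26-TIR1(F74G) libraries 5 stood above the R26-WT maximum, and replicate 8, the library with the fewest reads, stood just below it. The log2 fold change was 0.37 ± 0.12 (SE), with an unadjusted p of 0.00235 and adjusted p of 0.103 by DESeq2 and 0.348 by edgeR. Leaving out R26-TIR1(F74G) replicate 8 brought it past the threshold (0.42 ± 0.11, DESeq2 adjusted p 0.0202), and without any other single library the adjusted p lay between 0.102 and 0.417. A part of its exons (4.74%) lies opposite exons of Smcr8.

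Psat1 encodes the aminotransferase of the second step of serine synthesis from glycolysis (chr19:15882042-15924701). It had 2361, 2366, 2194 and 2372 normalized counts in R26-WT and 2459, 2717 and 2996 as lowest, median and highest in R26-TIR1(F74G). Here the groups did not overlap, the only such gene of the 34 (2.94%), where 2.37% of all tested genes had groups that did not overlap. The log2 fold change was nevertheless small, 0.21 ± 0.09 (SE), and the adjusted p was 0.451 by DESeq2 and 0.771 by edgeR.

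When 1 surrogate variable estimated from the counts was added to the DESeq2 model, Shmt1 (0.36 ± 0.10, adjusted p 0.00689) and Psat1 (0.22 ± 0.07, adjusted p 0.0293) were called higher, 2 of 34 genes, in a fit that called 4.54% of all genes. Over all alternatives tried, the adjusted p of Shmt1 ranged from 0.00689 to 0.417 and that of Psat1 from 0.0293 to 0.9999. Of the 18 proliferation genes, 14 were called higher by DESeq2, against 1.40% of all genes, and 6 by edgeR, against 0.373%, and their summed normalized counts were 15150 to 23030 in R26-WT and 24280 to 38200 in R26-TIR1(F74G). The part of dividing cells in the Shmt1 and Psat1 values was not tested.

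Shmt2, the mitochondrial counterpart of Shmt1 (chr10:127352992-127358313), was the most abundant gene of the role per kb. It had 4967, 5625, 6007 and 5372 normalized counts in R26-WT and 5701, 6263 and 7043 as lowest, median and highest in R26-TIR1(F74G), of which 4 of 6 exceeded the R26-WT maximum. The log2 fold change was 0.19 ± 0.10 (SE, DESeq2 adjusted p 0.789). Within libraries, Shmt1 stood to Shmt2 per kb at 0.196 ± 0.0173 in R26-WT (SD, n = 4, from 0.171 to 0.21) and at 0.22 ± 0.0174 in R26-TIR1(F74G) (SD, n = 6, from 0.197 to 0.235), with overlapping ranges. The mitochondrial gene was thus the higher of the pair in every library of both groups.

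Mthfd2, a mitochondrial folate enzyme that activated T cells raise (chr6:83282673-83302890), had 4716, 4330, 5523 and 5575 normalized counts in R26-WT and 4107, 5203 and 5836 as lowest, median and highest in R26-TIR1(F74G). The groups covered nearly the same range, with a log2 fold change of 0.04 ± 0.13 (SE). Phgdh and Psph, which encode the first and last enzymes of serine synthesis, gave 0.06 ± 0.14 and 0.01 ± 0.13, the first ranging from 0.01 (without R26-WT replicate 1) to 0.12 (without R26-TIR1(F74G) replicate 7). Of 50-base stretches of Phgdh, 28.1% occur in other genes on the same strand, mostly in Gm7901, and 10.4% of Psph exons lie opposite Cct6a, so the counts of both are uncertain.

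Asns, the asparagine synthetase (chr6:7675169-7693254), was nearly silent. It had 23, 16, 24 and 55 normalized counts in R26-WT and 8, 34 and 58 as lowest, median and highest in R26-TIR1(F74G). Normalized counts spread 3.49-fold within R26-WT and 7.11-fold within R26-TIR1(F74G), and the log2 fold change of 0.27 had a standard error of 0.49 and a 95% interval from -0.69 to 1.23. The parts of counting error and of spread between libraries in this width were not tested. The value was 0.07 and 0.76 when R26-WT replicate 2 or 4 was left out.

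The 12 cytosolic tRNA synthetases, each of which joins an amino acid to its tRNA, had log2 fold changes from -0.07 to 0.16 with a median of 0.04, 10 above 0 and 2 below. This median lay close to 0, at -0.0055 and -0.014 without R26-WT replicate 3 or 4, 0.09 without replicate 2 and 0.0013 with a surrogate variable. Nars, for asparagine, was the most abundant per kb by the mean over all libraries, while in R26-WT alone Sars had 2120 and Nars 2052. Nars had 9328, 9026, 8708 and 8677 normalized counts in R26-WT and 8843, 9297 and 9726 as lowest, median and highest in R26-TIR1(F74G). It was also the gene with the smallest standard error, with a log2 fold change of 0.06 ± 0.07 and a 95% interval from -0.07 to 0.20. The synthetases for glycine (Gars, 0.002 ± 0.08), threonine (Tars, 0.02 ± 0.09), tyrosine (Yars, 0.02 ± 0.09), cysteine (Cars, -0.07 ± 0.08) and methionine (Mars1, 0.10 ± 0.11) had similarly small errors. Of 50-base stretches of Mars1 and Yars 39.6% and 20.3% occur in other genes of a newer annotation, mostly on the opposite strand. Wars, the tryptophan enzyme that interferon also induces, gave 0.16 ± 0.10, with all 6 R26-TIR1(F74G) libraries above the R26-WT median. Sars, for serine, gave -0.07 ± 0.12 (-0.02 and -0.14 when R26-WT replicate 3 or 2 was left out), and Eprs, which encodes the joined glutamate and proline enzymes, 0.03 ± 0.14.

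Aars, Iars and Lars, for alanine, isoleucine and leucine, were much more variable, and Iars is shown by library because its spread was seen. Iars (chr13:49835576-49887743) had 4348, 4635, 1808 and 2034 normalized counts in R26-WT and 2102, 3291 and 5557 as lowest, median and highest in R26-TIR1(F74G). The range within each group was 2.56-fold and 2.64-fold, while the difference between groups was 0.11 ± 0.31 on the log2 scale (SE). Lars and Aars gave 0.08 ± 0.21 and 0.15 ± 0.21, and the value of Aars ran from 0.02 to 0.29 when R26-WT replicate 3 or 2 was left out. With the same libraries left out, Lars ran from -0.029 to 0.22 and Iars from -0.085 to 0.34, so both changed sign. Of the Aars exons 14.3% overlap Exosc6 on the same strand, and a read pair in such a stretch was left out by the counting.

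Among the mTORC1 genes, the kinase subunit Mtor (chr4:148533068-148642140) had 916, 1283, 736 and 784 normalized counts in R26-WT and 830, 939 and 2184 as lowest, median and highest in R26-TIR1(F74G), the last in replicate 7. Its log2 fold change was 0.30 ± 0.28 (SE), or 0.004 without R26-TIR1(F74G) replicate 7 and 0.49 without R26-WT replicate 2. The scaffold subunit Rptor gave 0.11 ± 0.29, or -0.12 and 0.385 without the same libraries, respectively.

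The 4E-BP proteins hold back translation until mTORC1 phosphorylates them. Eif4ebp1, an ATF4 target (chr8:27750357-27766702), had 629, 577, 909 and 827 normalized counts in R26-WT and 456, 648 and 859 as lowest, median and highest in R26-TIR1(F74G). It gave -0.12 ± 0.21 (SE), or -0.0054 and -0.22 when R26-WT replicate 3 or 2 was left out. Eif4ebp2 (chr10:61264270-61288440) had 3591, 4038, 4028 and 4415 in R26-WT and 3523, 4101 and 4421 as lowest, median and highest in R26-TIR1(F74G), and gave 0.01 ± 0.10. The groups overlapped for both genes. Per kb, Eif4ebp1 stood to Eif4ebp2 at 0.481 ± 0.0902 (SD, n = 4, R26-WT) and 0.434 ± 0.0742 (SD, n = 6, R26-TIR1(F74G)), so Eif4ebp2 was the higher form in each of the 10 libraries.

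**Figure D3:**
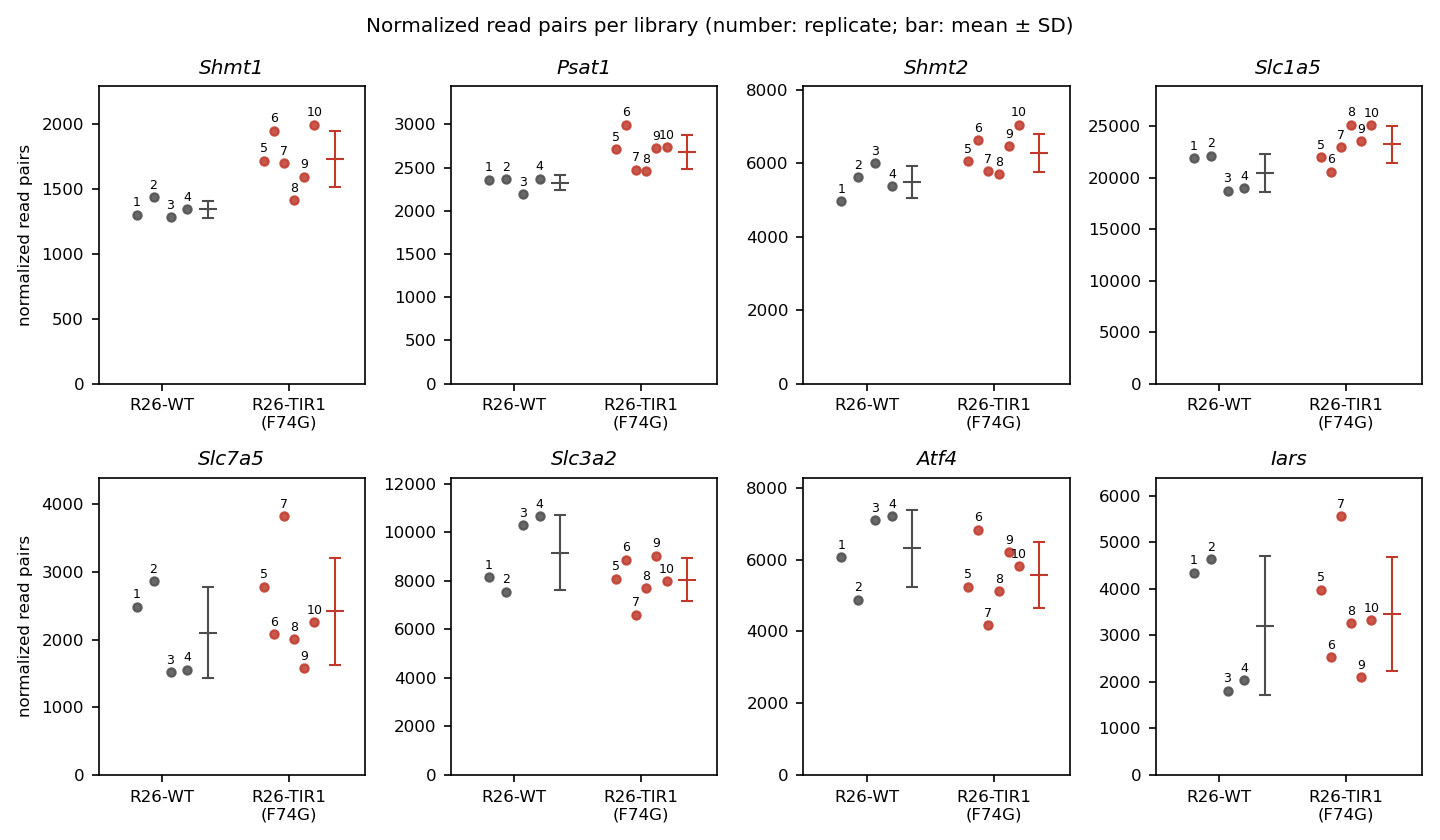
Normalized read pairs (y axis, from 0) of 8 genes in each library of R26-WT (grey, n = 4) and R26-TIR1(F74G) (red, n = 6), with replicate numbers at the points and mean ± SD beside them. Psat1 is the gene whose groups do not overlap, Slc7a5 and Iars are high in R26-TIR1(F74G) replicate 7 and low in R26-WT replicates 3 and 4, and Slc3a2 and Atf4 run the other way.

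The largest differences of these genes were thus between libraries of one group. Iars, Lars, Aars, Eprs, Slc7a5, Slc38a2, Rptor and Mtor, grouped here after their values were seen, shared one profile. In all 8, R26-WT replicates 3 and 4 were both below replicates 1 and 2, and in 6 of 8 R26-TIR1(F74G) replicate 7 was the highest of the 10 libraries. Over the 34 genes, replicate 7 was the highest of all libraries for 8 genes and the lowest for another 8, and R26-WT replicate 3 was the lowest for 11.

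The direction in which a library deviated went partly with gene length, while the size of the spread between libraries did not rise with it (Spearman's rho of summed exon length and the SD of log2 values over the 34 genes was -0.102 in R26-WT and -0.195 in R26-TIR1(F74G)). Spearman's rho between summed exon length and the deviation of a library from the gene mean, over the 34 genes, was 0.326 and 0.301 in R26-WT replicates 1 and 2 and -0.2 and -0.38 in replicates 3 and 4. In R26-TIR1(F74G) it ranged from -0.547 in replicate 6 to 0.589 in replicate 5. Over all 16363 genes the values had the same sign as over the 34 in each library except R26-TIR1(F74G) replicate 10, and ranged from -0.411 to 0.411. The points are genes of one library, which are not independent, and no test is given. Both groups held libraries of either sign. With the length trend of each library removed, DESeq2 again called 0 of the 34 genes, and their median log2 fold change was 0.05. RNA integrity was given by the labels as one range for the series and not per library, and its part in this pattern was not tested.

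**Figure D4:**
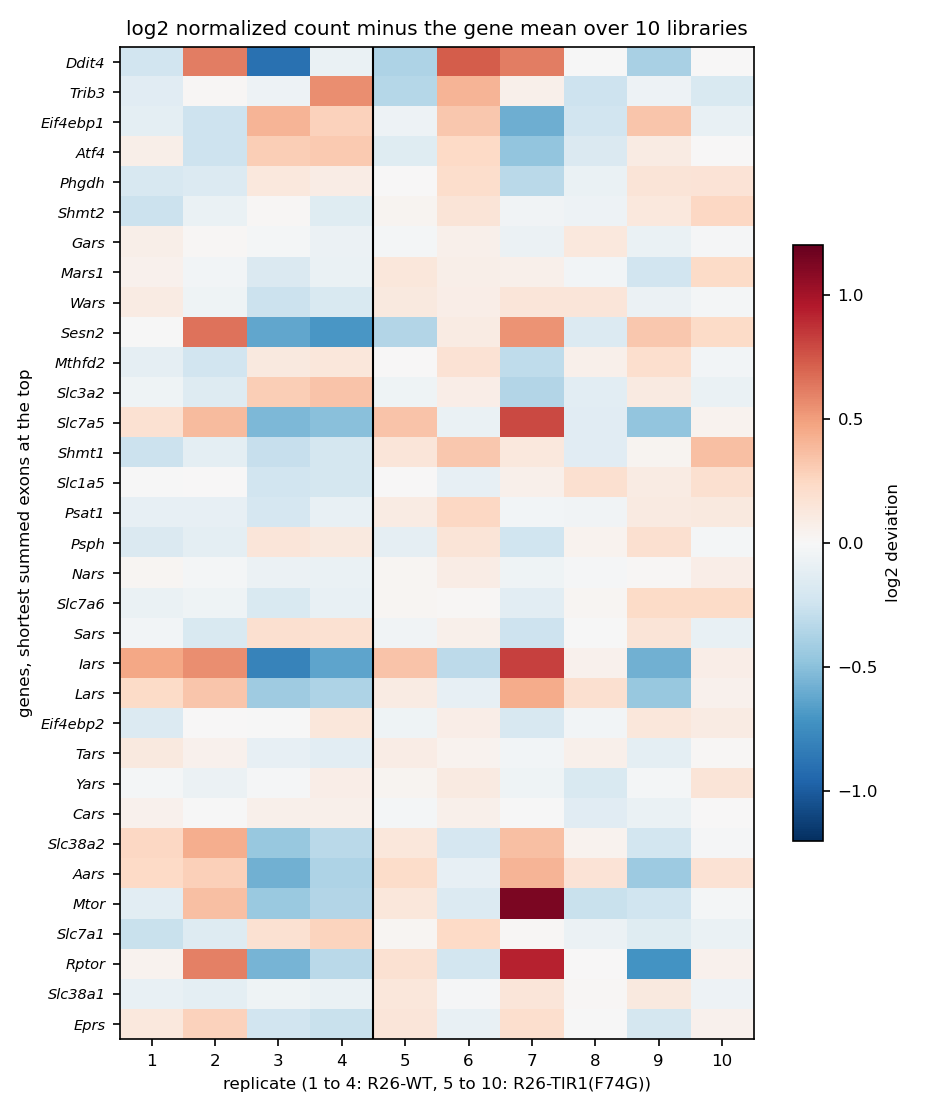
Log2 normalized count minus the gene mean over 10 libraries (colour, from -1.2 to 1.2) for 33 tested genes, with short genes at the top and long ones at the bottom and libraries as columns (R26-WT left of the line). Asns is left out because of its low counts. Columns 3, 4 and 9 are blue and columns 2 and 7 red for most of the variable long genes, whichever group the column belongs to.

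Other genes of these pathways were examined as 6 lists, 128 genes in all, of which 115 could be tested. DESeq2 called 1 higher and 2 lower, against 1.40% and 0.336% of all genes, and edgeR called 0. At an unadjusted p under 0.05 edgeR gave 9 of the 115 (7.83%), against 6.21% of all genes, and DESeq2 gave 11 (9.57%), against 6.86%. None of 16 other amino acid transporters was called by either test, with a median log2 fold change of 0.06. Of these, Slc7a10 had 2.35 ± 0.77 (SE) on 1 to 64 raw counts per library (DESeq2 adjusted p 0.103), and Slc43a1 had -0.47 ± 0.33. None of 11 other cytosolic synthetases and their AIMP scaffold proteins was called, with a median of -0.01 and a range from -0.09 for Aimp2 to 0.07 for Qars. None of 17 mitochondrial synthetases was called, with a median of -0.01 and the largest values at 0.33 ± 0.28 for Vars2 and 0.26 ± 0.25 for Aars2.

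In the list of other ATF4 targets and eIF2alpha genes, 0 of 20 were called higher and 1 lower, against 1.40% and 0.336% of all genes. The median was -0.03, with 10 values above 0, and 4 of the 20 had an unadjusted DESeq2 p under 0.05, against 6.86% of all genes. The gene that fell was Ppp1r15a, which encodes GADD34, the phosphatase subunit that reverses eIF2alpha phosphorylation. It had 12425, 7930, 7750 and 6034 normalized counts in R26-WT and 4390, 4906 and 5796 as lowest, median and highest in R26-TIR1(F74G), so the groups did not overlap. It fell by a log2 fold change of -0.77 ± 0.19 (SE), with an adjusted p of 0.00592 by DESeq2 and 0.0928 by edgeR, and it stayed past the DESeq2 threshold without any 1 library (-0.53 to -0.90).

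In the list of other mTORC1 genes, 0 of 38 were called higher and 1 lower, against 1.40% and 0.336% of all genes. The median was 0.03, with 22 values above 0. At an unadjusted DESeq2 p under 0.05 there was 1 of the 38, against 6.86% of all genes. Sesn1, a p53-regulated sestrin that dampens mTORC1 signalling, had 10098, 10803, 7623 and 8012 normalized counts in R26-WT and 5523, 6597 and 7296 as lowest, median and highest in R26-TIR1(F74G). The groups did not overlap, and the log2 fold change was -0.48 ± 0.14 (SE, adjusted p 0.0360 by DESeq2 and 0.137 by edgeR). The DESeq2 call was lost without R26-WT replicate 1 or 2 or without R26-TIR1(F74G) replicate 5, 7, 9 or 10, with adjusted p from 0.0742 to 0.228.

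In the list of other one-carbon and glycine genes, 1 of 13 was called higher and 0 lower, against 1.40% and 0.336% of all genes. The median was 0.07, with 10 values above 0. At an unadjusted DESeq2 p under 0.05 there were 2 of the 13, against 6.86% of all genes. Tyms, the thymidylate synthase of DNA synthesis, had 691, 802, 704 and 625 normalized counts in R26-WT and 838, 1080 and 1422 as lowest, median and highest in R26-TIR1(F74G), again without overlap. It rose by 0.62 ± 0.16 on the log2 scale (SE, adjusted p 0.0121 by DESeq2 and 0.156 by edgeR). The DESeq2 call was lost without R26-WT replicate 1, 3 or 4 (adjusted p 0.0620 to 0.121, log2 fold change 0.56 to 0.62) and with the length trend removed (0.0554 and 0.59), and held with the length and GC trend removed (0.0423 and 0.59). Tyms is a usual gene of S phase and was higher in R26-TIR1(F74G), as were the proliferation genes given above, whose part in this value was not tested.

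**Figure D5:**
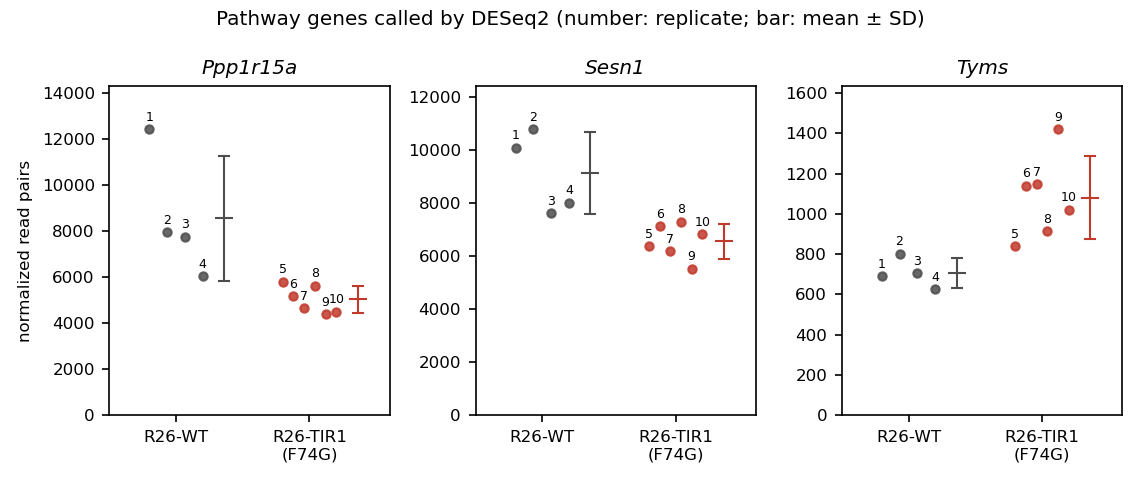
Normalized read pairs (y axis, from 0) of Ppp1r15a, Sesn1 and Tyms per library, with replicate numbers at the points and mean ± SD (R26-WT grey, n = 4; R26-TIR1(F74G) red, n = 6) beside them. All 6 R26-TIR1(F74G) libraries lie below the R26-WT libraries for Ppp1r15a and Sesn1 and above them for Tyms.

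Between 24158699 and 54795718 read pairs were counted per library. The degron acts on the Foxp3 protein, so the Foxp3 transcript does not check degradation, and it had 6816 to 11779 normalized counts in R26-WT and 6778 to 16059 in R26-TIR1(F74G). Of 10 markers of activated Treg cells 1 was called higher (Tigit) and 1 lower (Tnfrsf9), and of 7 markers each of Treg cells and of resting T cells 0 and 1 were called (Bcl2, higher), beside 1.40% higher and 0.336% lower over all genes. In these 3 lists edgeR called 0, with 3, 1 and 1 genes at an unadjusted p under 0.05, the same numbers as DESeq2. Summed markers of other cells overlapped between R26-WT and R26-TIR1(F74G), at 846 to 1382 and 731 to 1188 normalized counts for B cells, 22.8 to 45.4 and 25.7 to 74.3 for plasma cells, 77.0 to 121 and 77.3 to 152 for myeloid cells, and 1203 to 1843 and 1093 to 1388 for CD8 T and NK cells. Derl3, the 1 plasma cell marker tested, had a log2 fold change of 0.89 on 11 to 68 raw counts per library, at an unadjusted p under 0.05 by DESeq2 and edgeR, and was called by neither. Mzb1, Tnfrsf17 and Ncr1 were at 0 in every library.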

How the data were processed

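Messenger RNA of Treg cells from 10 libraries was amplified from small amounts with SMART-Seq v4 and PCR, without molecular identifiers, so read pairs are not independent molecules. The authors deposited raw read-pair counts per gene name, 1 file per library. Per the file headers, featureCounts 2.1.1 was run with GENCODE release M30 (GRCm39) on primary alignments with both mates mapped and a mapping quality of at least 30, with no strand option, and a read pair overlapping several genes was left out. STAR is named as the aligner in the study's methods and Bowtie2 in the submitters' processing notes.

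Genes whose mean count reached 10 were tested in R 4.3.3 with DESeq2 1.42.0 (genotype as the only term), as in the study's methods. The alternatives used edgeR 4.0.16, limma 3.58.1 and sva 3.50.0. DESeq2, edgeR, voom and the removal of the length trend were checked on simulated counts. The other fits, among them the one with a surrogate variable, were not. Intervals are Wald intervals. In pairs of libraries of one group, chi-square per degree of freedom over genes was 10.3 or more, so none was taken as a duplicate. The 36 genes and all lists were chosen with earlier results of these data known. Values by library are given for genes called by DESeq2, the gene with the highest level per kb in each role, and Atf4, Slc7a5, Slc3a2, Asns, Mthfd2, Mtor and Eif4ebp1, whatever their change. From the pathway lists, called genes are named, or at most 2 of largest change where none was called. Genes named outside this rule are said to be so chosen. Promoter sequences are RefSeq's (GRCm38.p6 table), matched exactly and at 1 place to GRCm39. The removal of a trend on both length and GC content was added after seeing the data. A marker list and some promoter sites are not reported here.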

Additional observations from a re-analysis of the deposited data

Results flagged for a closer look

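Among 80 sets of values examined (each of the 34 genes, Ppp1r15a, Sesn1, Tyms and each of the 3 within-library ratios, in each group), in 3 a single library stood apart, measured as its gap to the nearest library of its group over the range of the group. Chance gives about 1 in 20, which is 4 here. In R26-TIR1(F74G) replicate 7 the normalized count of Mtor was 2184, where the other 5 libraries of the group had 830 to 1103. Psat1 had 2194 in R26-WT replicate 3, where the others had 2361 to 2372, and without this library its log2 fold change was 0.18 and its DESeq2 adjusted p 0.9999. Cars, for cysteine, had 2584 in R26-WT replicate 2 and 2697 to 2716 in the others.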

How the results depend on the processing

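No paired analysis was possible because the labels do not link R26-WT to R26-TIR1(F74G) libraries, and replicate numbers run on from the first group to the second. The count of the 34 genes called lower stayed at 0 in all alternatives run, and the count called higher was 0 except for 2 with 1 surrogate variable and from 0 to 1 when single libraries were left out. Their median log2 fold change stayed between 0.03 and 0.12. Of the pathway genes, 115 tested in the main fit, 3 were called by DESeq2 and 0 by edgeR and by limma voom. With 1 surrogate variable 7 were called, and 5 with the length and GC trend removed. Without single libraries it was 1 to 4 (1 without R26-WT replicate 1, where only Ppp1r15a was left). Over all genes, 16363 tested in the main fit, the calls numbered 284 with DESeq2 (80.6% higher), 61 with edgeR and 80 with voom. They numbered 743 with 1 surrogate variable (63.0% higher), 380 with the length and GC trend removed, and 187 to 346 without single libraries. The cause of these differences was not tested.

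Of 680 values (34 genes, 20 alternatives), 60 changed sign, in 13 genes, none of them called. The log2 values past 0 were, with 1 surrogate variable, Eprs -0.030, Gars -0.0010, Iars -0.048, Lars -0.018, Rptor -0.085, Slc38a2 -0.070 and Slc7a1 0.026. With TMM factors, the value was Gars -0.0033. With upper-quartile factors, the values were Gars -0.0090 and Psph -0.0036. With edgeR, the value was Gars -0.0030. With the length and GC trend removed, the values were Eif4ebp2 -0.040, Eprs -0.0063, Psph -0.022, Slc38a2 -0.015, Tars -0.018 and Yars -0.029. With the length trend removed, the values were Eif4ebp2 -0.033, Eprs -0.010, Psph -0.026, Slc38a2 -0.024, Tars -0.021 and Yars -0.031. With voom, the values were Eif4ebp2 -0.0039, Psph -0.029 and Yars -0.0048. Leaving out single libraries gave Eif4ebp2 -0.036 to 0.065, Eprs -0.047 to 0.14, Gars -0.021 to 0.026, Iars -0.085 to 0.34, Lars -0.029 to 0.22, Mthfd2 -0.027 to 0.096, Psph -0.043 to 0.063, Rptor -0.12 to 0.39, Slc38a2 -0.12 to 0.18, Slc7a1 -0.11 to 0.068, Tars -0.013 to 0.065, Trib3 -0.27 to 0.022 and Yars -0.0076 to 0.058. Low counts limit mainly Slc7a11 and Chac1, and the spread between libraries limits Iars, Rptor, Mtor, Ddit4 and Sesn2. The part of depth in these low counts was not tested. For Asns depth and spread were not separated.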
